A study of Mus musculus with 12 samples.

Results

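The potassium channel subunits of the mouse genome were followed in the pituitary tumors of pro-opiomelanocortin (POMC) knockout (KO) mice. Every gene on the array whose annotated symbol begins with Kcn was taken, apart from antisense transcripts, when at least 1 probe set named it and no other gene, and the probe set of highest mean over the 12 arrays stood for the gene. This gave 81 of the 18193 genes on the array, measured by 159 probe sets.

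Potassium channels are membrane pores that let potassium leave the cell and so hold or restore a negative membrane potential. Hormone-secreting pituitary cells fire spontaneous action potentials, and the mix of potassium channels sets how long each spike lasts, how often it comes and how much calcium enters for secretion. The receptors for dopamine and somatostatin, which are the drug targets of the study, act on pituitary cells in part by opening G protein-gated potassium channels.

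POMC is the precursor of ACTH and of the melanocyte-stimulating hormones, and mice that lack 1 or both copies develop pituitary tumors. The study profiled these tumors to compare them with human nonfunctioning pituitary adenomas. RNA came from untreated mice and was read on Affymetrix Mouse Genome arrays, and all values are log2 signals normalized by the authors. There were 8 arrays of heterozygous POMC KO tissue, 2 of homozygous POMC KO tissue and 2 of normal pituitary. The labels call all 3 tissues pituitary, and the methods call the KO tissue spontaneous tumor and the normal tissue pooled. The design text speaks of 2 normal mice instead, so whether each normal array holds 1 mouse or a pool is not settled, and the spread between them may be that of pools. Age, sex and strain of the mice on the arrays are not given in the sources used here. The KO is carried in the germ line, so every cell of these glands has the genotype, and a tumor sample can hold remaining gland. Pomc itself, the deleted gene, read 15.08 and 15.11 in the normal samples, 15.15 to 15.30 in the heterozygous samples and 7.18 in the homozygous sample.

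The arrays were not 12 independent samples by their values. Within the heterozygous arrays numbered 1 and 2, 3 and 4, 5 and 6, and 7 and 8, and within the 2 homozygous arrays, the correlation was 0.997 in each of 5 pairs and 0 to 2 probe sets differed over 2-fold. Arrays of different heterozygous pairs differed over 2-fold at 368 to 828 probe sets, and the 2 normal arrays at 242. Each pair was therefore averaged and counted once, which left 4 heterozygous samples, 1 homozygous sample and 2 normal samples. Whether a pair is 1 animal is inferred from the values and not stated in the labels, so the p-values below measure only the spread between these 7 samples, and the lone homozygous sample was assumed to vary as the others did.

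Tissue markers differed between the groups too. In the heterozygous samples 6 of 7 gonadotroph and thyrotroph markers were lower, where 4.5% of all tested genes were. The summed linear signal of that list was 2370 to 17200, against 46200 to 47000 in normal pituitary. Cga, its marker of highest signal, weighed most in the sum and was not called (-2.19, limma adjusted p = 0.0612). Of 8 macrophage markers 6 were higher (summed signal 3600 to 7050 against 764 to 911), where 5.57% of all tested genes were. In the homozygous sample these sums were 23500 and 2610. There 2 gonadotroph and thyrotroph markers were lower (1.3% of all tested genes were) and 2 macrophage markers higher (1.43% of all). The 2 lower markers were Nr5a1 (-1.35 on the log2 scale) and Foxl2 (-1.36). Lhb and Fshb differed by -3.25 and -4.26 in that sample and Cga by -0.43, and none of these was called there. The part of cell composition in the channel values was not tested, and in bulk tissue fewer cells of a type and less RNA per cell cannot be told apart. Xist, a transcript of the inactive X chromosome, was high in heterozygous pairs 3-4 (10.93) and 7-8 (11.25) and in the homozygous sample (11.20), and between 4.57 and 5.07 in the other samples.

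Of the 81 potassium channel genes, 42 reached a log2 signal of 5.74, the median over all probe sets and arrays, on 2 or more of the 12 arrays and were tested. The other 39 were not: 34 lay below 5.74 on every array, and Kcnk4, Kcnd1, Kcnk5, Kcnk13 and Kcna3 reached it on 1 array, the highest value being 6.11 for Kcna3. None of the 5 Kcne genes, small single-pass partners of voltage-gated channels, was tested. Kcne4, the Kcne gene of highest mean, lay between 5.13 and 5.50. Neither of the 2 Kcnv genes, silent subunits that work only beside other pore subunits, was tested, and the higher of them, Kcnv1, lay between 3.64 and 4.19. By role, tested genes were 16 of 31 voltage-gated pore subunits, 6 of 15 inward rectifiers, 5 of 12 tandem-pore subunits, 8 of 11 subunits of calcium- and sodium-activated channels, and 7 of 12 auxiliary subunits. A gene was called changed when limma's adjusted p (Benjamini-Hochberg, over 24486 tested probe sets) was under 0.05 and its fold change over 2.

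In the heterozygous tumors 10 of the 42 tested genes were called (23.8%, beside 10.1% of all tested genes): 8 were lower and 2 were higher. The lower share was 19%, where 4.5% of all 12305 tested genes were lower, and the higher share was 4.76%, where 5.57% of all tested genes were higher. The genes that fell were Kcna5, Kcnc4 and Kcnd3 among voltage-gated pores, the inward rectifier Kcnj10, the tandem-pore channel Kcnk2, the calcium-activated Kcnn2 with the auxiliary Kcnmb2, and the auxiliary Kcnab1. The genes that rose were Kcnc1 and Kcnh1, both voltage-gated. The median log2 fold change of the 42 genes was -0.11, beside 0.0017 for all tested genes, and 25 of the 42 (59.5%) lay below 0, beside 49.9% of all tested genes. A further 4 genes on each side of 0 had an adjusted p under 0.05 with a fold change of 2 or less. Of these, Kcnab3 and Kcnj6 entered the test only through heterozygous arrays, and Kcns3 only through the 2 normal arrays.

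**Figure D1:**
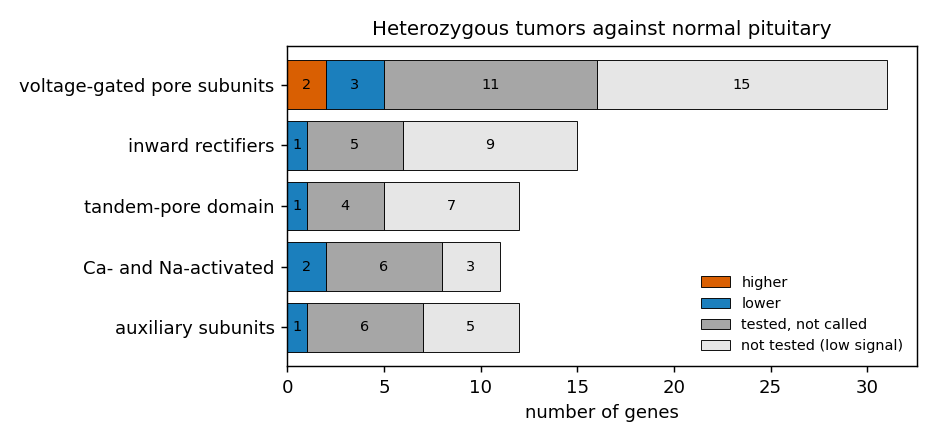
Number of potassium channel genes by role (horizontal axis), split by colour into higher, lower, tested without a call and not tested, for heterozygous tumors against normal pituitary. Each of the 5 roles holds at least 1 gene that was lower, and the 2 that were higher are both voltage-gated pore subunits.

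In the homozygous tumor 4 of the 42 genes were called (9.52%, beside 2.73% of all tested genes). Kcna5, Kcnc4 and Kcnab1 were lower (7.14%, where 1.3% of all tested genes were lower), and Kcnip4 was higher (2.38%, where 1.43% of all tested genes were higher). The median log2 fold change was -0.22, beside -0.0278 for all tested genes, and 27 of the 42 genes (64.3%) lay below 0, beside 53.3% of all tested genes. Both tumor genotypes were set against the same 2 normal samples, so the calls of the 2 comparisons are not independent. Kcnip4 entered the test only through the homozygous arrays, where it is high. Between the genotypes, Kcnip4 alone was called, higher in the homozygous tumor (2.38%, where 0.228% of all tested genes were higher and 0.276% differed either way). No Kcn gene was called lower by limma in the homozygous than in the heterozygous tumors (0.0488% of all tested genes were), with 6 lower and 4 higher at an unadjusted p under 0.05.

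**Figure D2:**
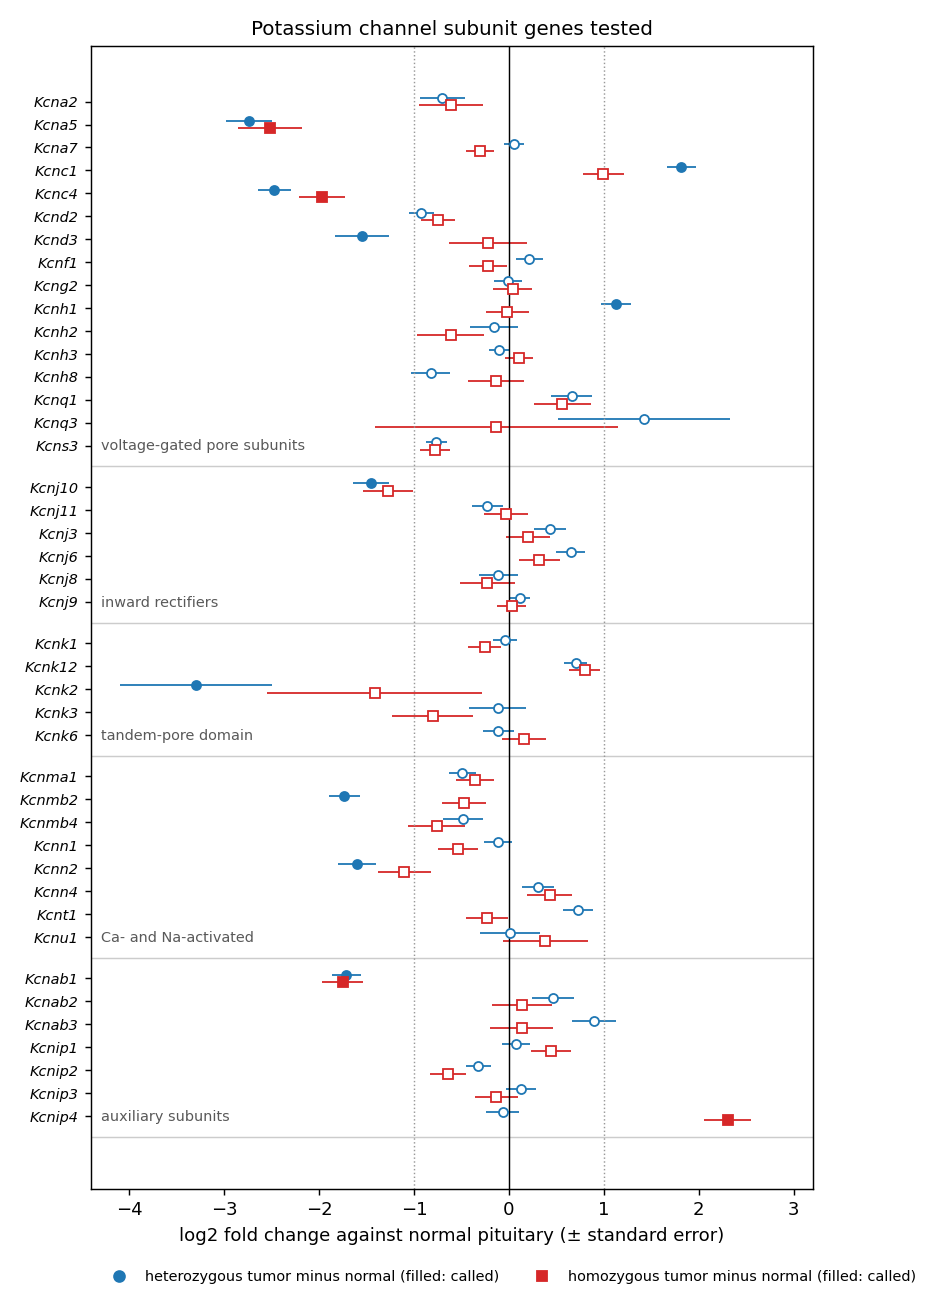
Log2 fold change against normal pituitary (horizontal axis, bars ± 1 standard error from limma) for the 42 tested potassium channel genes, grouped by role. Circles are heterozygous and squares homozygous tumors, filled where called, and dotted lines mark a 2-fold change: the filled symbols of Kcna5, Kcnc4 and Kcnab1 lie left of the line in both genotypes, and right of it lie the filled circles of Kcnc1 and Kcnh1 and the filled square of Kcnip4.

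The 5' regions of 4 voltage-gated pore genes are given because these genes moved in opposite directions by the probe set standing for each. Kcna5 and Kcnc4 fell in both genotypes, and Kcnc1 and Kcnh1 rose in the heterozygous tumors. Each stretch is the RefSeq promoter window of 300 bases (an annotated start and the bases around it, most of them upstream, in mouse build GRCm38.p6), written 5' to 3' on the gene's strand. Capitals mark a GC box (GGGCGG) or a T-box site (TCACACC), searched on both strands. Kcna5 lies at chr6:126535506-126535805 on the minus strand, Kcnc4 at chr3:107458849-107459148 on the minus strand, Kcnc1 at chr7:46396218-46396517 on the plus strand and Kcnh1 at chr1:192190527-192190826 on the plus strand. The starts used for Kcnc4, Kcnc1 and Kcnh1 lie inside the annotated span of the gene, so other starts exist for them.
Kcna5: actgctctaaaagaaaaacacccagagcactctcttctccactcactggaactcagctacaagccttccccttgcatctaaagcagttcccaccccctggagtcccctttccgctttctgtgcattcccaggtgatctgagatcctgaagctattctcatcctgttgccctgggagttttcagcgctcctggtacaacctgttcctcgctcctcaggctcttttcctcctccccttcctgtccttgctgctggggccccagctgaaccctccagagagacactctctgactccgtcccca
Kcnc4: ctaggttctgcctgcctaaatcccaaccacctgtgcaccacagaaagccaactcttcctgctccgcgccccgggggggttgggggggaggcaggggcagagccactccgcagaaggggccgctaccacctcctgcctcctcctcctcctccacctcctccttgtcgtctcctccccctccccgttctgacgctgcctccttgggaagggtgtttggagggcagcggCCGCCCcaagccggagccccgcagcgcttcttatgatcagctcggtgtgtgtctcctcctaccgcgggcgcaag
Kcnc1: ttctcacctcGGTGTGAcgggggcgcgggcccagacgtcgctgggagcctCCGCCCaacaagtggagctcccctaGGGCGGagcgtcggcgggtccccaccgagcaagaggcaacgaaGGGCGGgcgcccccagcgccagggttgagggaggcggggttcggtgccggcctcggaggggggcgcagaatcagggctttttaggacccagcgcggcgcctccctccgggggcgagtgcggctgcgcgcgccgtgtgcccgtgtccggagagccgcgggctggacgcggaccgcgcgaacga
Kcnh1: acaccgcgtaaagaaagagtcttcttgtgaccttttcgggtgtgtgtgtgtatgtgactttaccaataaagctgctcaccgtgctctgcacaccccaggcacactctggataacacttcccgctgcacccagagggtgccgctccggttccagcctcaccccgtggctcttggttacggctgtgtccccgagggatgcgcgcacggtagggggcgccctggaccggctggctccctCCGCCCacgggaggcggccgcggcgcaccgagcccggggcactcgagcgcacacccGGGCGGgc

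The 4 windows differ in base composition. Kcna5 has 55.0% G and C with 4 CpG, and no match to any of the 6 motifs searched. Kcnc4 has 66.7% with 17 CpG and 1 GC box, Kcnh1 has 66.0% with 27 CpG and 2 GC boxes, and Kcnc1 has 74.7% with 41 CpG, 3 GC boxes and 1 T-box site. The median window of all 32851 promoters has 52.7% G and C with 7 CpG, and the median Kcn window 58.0% with 9 CpG. Of the 87 windows found for 62 Kcn genes, 48.3% hold a GC box, beside 35.7% of all promoters, and 5.75% hold a T-box site, beside 3.98%. The TATA box (TATAAA) is in 5.75% of the Kcn windows and 13.6% of all, and the E-box CAGATG in 20.7% and 17.2%. The cAMP response element (TGACGTCA) and the left part of the RE1 element (TTCAGCACC) are in none of the Kcn windows, and in 1.79% and 0.371% of all promoters. These matches describe letters and were not tested for any part in the expression differences.

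Kcna5, the pore subunit of a delayed rectifier known from atrial muscle, fell in both genotypes. Its signal was 9.15 and 9.25 in the normal samples, 6.75, 5.97, 6.35 and 6.80 in heterozygous pairs 1-2, 3-4, 5-6 and 7-8, and 6.69 in the homozygous sample. Every tumor sample lay below both normal samples, and the homozygous value lay inside the heterozygous range. The log2 fold change was -2.74 (SE 0.24, limma adjusted p = 0.000573), or 6.67-fold lower, in heterozygous and -2.51 (SE 0.34, adjusted p = 0.0175) in homozygous tumors. With Xist as a covariate the homozygous log2 fold change was -2.36 and no longer passed (adjusted p = 0.0608). Both normal samples were low in Xist and the homozygous sample was high, so the homozygous genotype and Xist cannot be told apart there.

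Kcnc4 and Kcnc1 belong to the fast-gating family that keeps action potentials brief, and they changed in opposite directions. Kcnc4 read 8.37 and 8.03 in the normal samples, 5.68, 5.56, 5.62 and 6.05 in the heterozygous pairs and 6.23 in the homozygous sample. The tumor and normal samples did not overlap. The log2 fold change was -2.47 (SE 0.17, limma adjusted p = 0.000317) in heterozygous and -1.97 (SE 0.24, adjusted p = 0.0140) in homozygous tumors. As 3 of the 4 heterozygous values lie below 5.74, the size of the fall is approximate. The other Kcnc4 probe set differed far less, by -0.41 in heterozygous tumors (adjusted p = 0.0340) and by -0.45 in the homozygous sample. The homozygous difference did not pass the test there, so the 2 probe sets disagree on the size.

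Kcnc1 read 7.26 and 7.11 in the normal samples, 9.13, 9.12, 9.04 and 8.71 in the heterozygous pairs and 8.18 in the homozygous sample. All heterozygous samples were above the homozygous one, which was above both normal samples. The rise in heterozygous tumors was 1.82 on the log2 scale (SE 0.15, limma adjusted p = 0.000521), and the homozygous difference of 0.99 (SE 0.21) missed the threshold (adjusted p = 0.0598). The 3 other Kcnc1 probe sets gave 1.60 (adjusted p = 0.00151), 0.84 (adjusted p = 0.00242) and -0.08 (adjusted p = 0.706) in heterozygous tumors, so they too disagree on the size.

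Kcnh1, an ether-a-go-go channel that is found mainly in brain and in many tumors, was called higher in the heterozygous tumors. Its signal was 7.54 and 7.58 in the normal samples, 8.72, 8.62, 8.44 and 8.98 in the heterozygous pairs and 7.54 in the homozygous sample. The homozygous value lay at the normal level, below every heterozygous sample. The rise in heterozygous tumors was 1.13 (SE 0.16, limma adjusted p = 0.00323), and a second probe set gave 1.30 (adjusted p = 0.00385). The homozygous sample differed from normal by -0.02 (adjusted p = 0.975), and the difference between the genotypes, -1.15, did not pass the test (adjusted p = 0.132). With all 12 arrays and the pair as a random block the same difference passed (adjusted p = 0.00796). That fit, also given for Kcnn2 and Kcnmb2 below, counts the near-duplicate arrays of a pair as partly separate. The homozygous group in it is still 1 pair.

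The Kcnd subunits form the transient A-type current that delays the next spike. Kcnd3 read 9.08 and 8.79 in the normal samples, 7.10, 7.16, 7.19 and 8.10 in the heterozygous pairs and 8.71 in the homozygous sample. Heterozygous pair 7-8 stood apart from the other 3 pairs, and the homozygous value was just below the normal ones. The heterozygous fall was 1.55 on the log2 scale (log2 fold change -1.55, SE 0.29, limma adjusted p = 0.00968), and -1.78 without pair 7-8 (adjusted p = 0.000583). The call was lost without normal sample 1 (adjusted p = 0.0859). In homozygous tumors the difference was -0.22 (adjusted p = 0.825). Kcnd2, of the same subfamily, read 9.12 and 9.06 in normal samples, 7.99 to 8.35 in heterozygous pairs and 8.34 in the homozygous sample. All tumors lay below normal, and the differences of -0.92 (adjusted p = 0.00309) and -0.75 (adjusted p = 0.0851) were under 2-fold for this probe set. Another Kcnd2 probe set passed the call in heterozygous tumors, at -1.08 (adjusted p = 0.0045). A further one gave -0.49 (adjusted p = 0.126), so the probe sets disagree on the size.

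Among the other voltage-gated pores, Kcnq3, which was picked out after its values were seen, split the heterozygous samples. It read 4.89 and 4.83 in normal samples, 8.09, 7.21, 4.71 and 5.12 in heterozygous pairs 1-2, 3-4, 5-6 and 7-8, and 4.73 in the homozygous sample. Pairs 1-2 and 3-4 were high and all other samples were below 5.74, so Kcnq3 entered the test only through those pairs. The 2 arrays of a pair differed by at most 0.46, and the heterozygous SD was 1.63. The heterozygous mean difference of 1.43 (SE 0.90) did not pass the test (limma adjusted p = 0.298).

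Further pores gave no call. Kcnh2, the channel that repolarizes the heart, read 9.26 and 9.48 in normal samples, 8.89 to 9.77 in heterozygous pairs and 8.76 in the homozygous sample, so normal and heterozygous ranges overlapped. Kcnq1, which works with Kcne subunits in heart and epithelia, read 5.60 and 5.21 in normal samples and 5.77 to 6.35 in heterozygous pairs (difference 0.66, limma adjusted p = 0.0631). Kcna2, a low-threshold channel of axons, differed by -0.70 (adjusted p = 0.0725). Their values did not pass the test. Kcns3, a silent modifier of other pores, differed by -0.77 (adjusted p = 0.00338) in heterozygous and by -0.78 (adjusted p = 0.0491) in homozygous tumors, under 2-fold and with all tumor samples below 5.74. Kcns3 entered the test only through the 2 normal arrays, where it is high. The remaining silent subunits of highest mean, Kcnf1 and Kcng2, differed by 0.21 (adjusted p = 0.317) and -0.01 (adjusted p = 0.981) in heterozygous tumors.

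**Figure D3:**
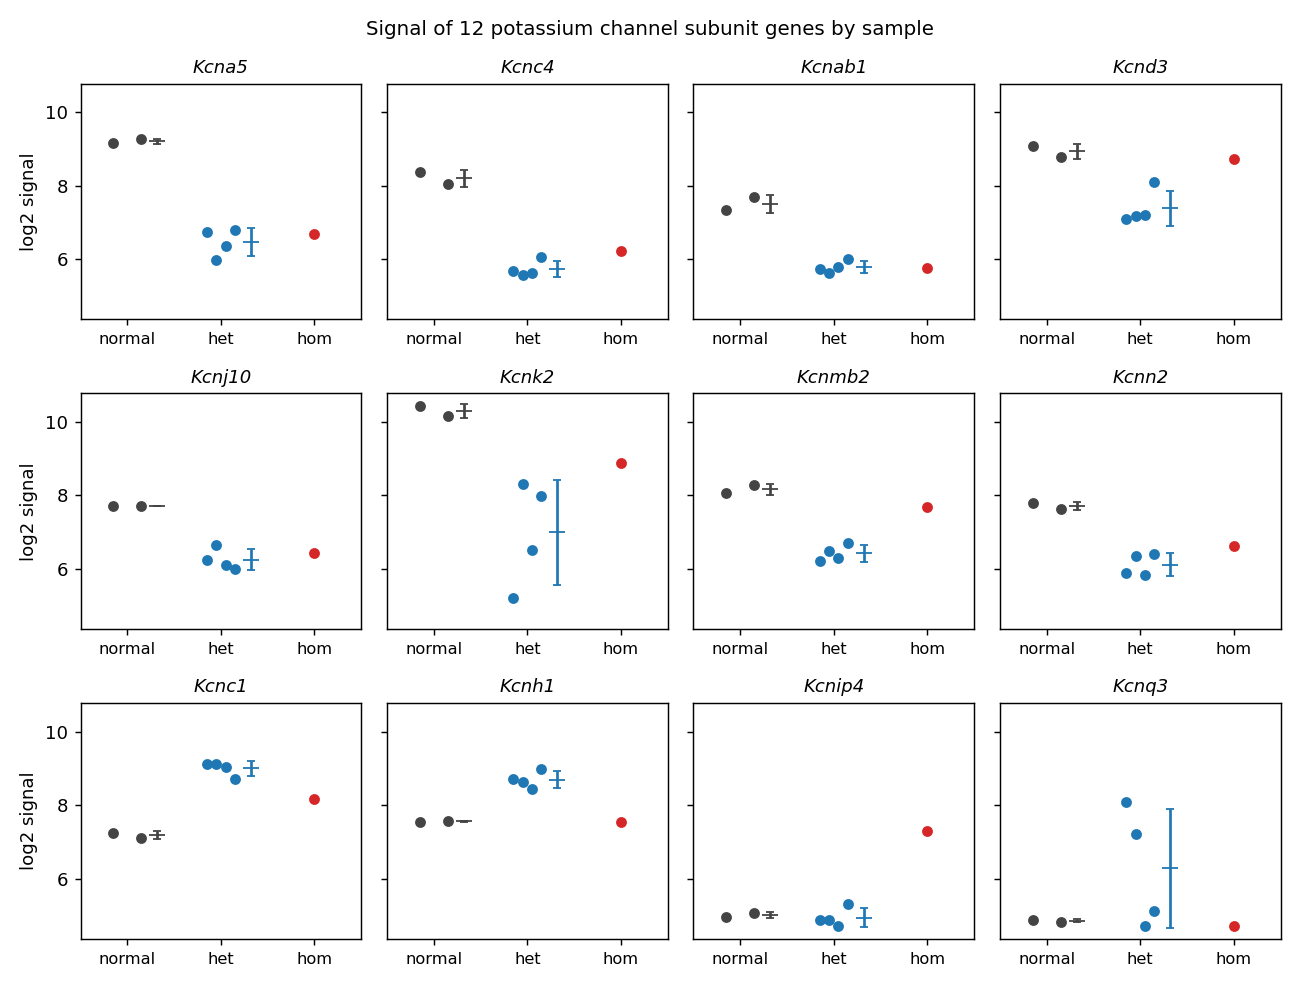
Log2 signal (vertical axis) of the 11 called genes and Kcnq3 in the 2 normal, 4 heterozygous and 1 homozygous samples (points, pairs of arrays averaged), with the mean ± SD beside the normal and heterozygous points. The heterozygous points of Kcnk2 and Kcnq3 are spread over 3.11 and 3.38 log2 units, and those of every other tested potassium channel gene over at most 1.21.

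Kcnj10, the inward rectifier by which glial cells take up potassium, was the only one of 6 tested inward rectifiers to be called. It read 7.70 and 7.71 in normal samples, 6.25, 6.66, 6.11 and 5.99 in heterozygous pairs and 6.43 in the homozygous sample. All tumor samples lay below both normal samples. The fall in heterozygous tumors had a log2 fold change of -1.45 (SE 0.19, limma adjusted p = 0.00226), and the homozygous difference of -1.27 (SE 0.27) missed the threshold (adjusted p = 0.0550). Of 5 tested pituicyte, astroglia and folliculostellate markers, Slc1a3 (-3.23) and Aqp4 (-1.12) were also lower in heterozygous tumors, where 4.5% of all tested genes were. Sox2 (0.26), S100b (0.09) and Fabp7 (-0.04) were not called. In the homozygous sample Slc1a3 differed by -2.51 and Aqp4 by 0.19. Sox2, S100b and Fabp7 differed there by -0.25, -0.20 and -0.69. Gfap and Rax were below 5.74 on every array, and the summed signal of the list was 1110 to 1600 in heterozygous, 1130 in homozygous and 1560 to 1780 in normal samples. The part of these cells in the Kcnj10 values was not tested.

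The G protein-gated inward rectifiers were not called. Kcnj3, a pore subunit of the channel that dopamine and somatostatin receptors open, read 7.35 and 7.29 in normal samples, 7.86, 7.74, 7.97 and 7.43 in heterozygous pairs and 7.51 in the homozygous sample. Every tumor sample was above both normal samples, by 0.43 (limma adjusted p = 0.0994) in heterozygous and 0.20 (adjusted p = 0.709) in homozygous tumors. Other tested Kcnj3 probe sets gave 0.28 (adjusted p = 0.351) and 0.54 (adjusted p = 0.14) in heterozygous tumors. In both, heterozygous pair 7-8 was not above both normal samples, so that separation held for the first probe set only. The Kcnj3 partner Kcnj6 differed by 0.65 (adjusted p = 0.0226) in heterozygous tumors, under 2-fold and at low signal (4.93 and 5.21 in normal samples). Kcnj6 entered the test only through heterozygous arrays, where it is high. Kcnj11, the pore of the ATP-sensitive channel that couples glucose to secretion, read 7.12 and 6.95 in normal samples, 6.57 to 7.08 in heterozygous pairs and 7.00 in the homozygous sample, so the groups overlapped (adjusted p = 0.351 and 0.956).

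Kcnk2, a mechanosensitive leak channel that is closed by cAMP signalling, had the largest log2 fold change of the tested potassium channel genes in heterozygous tumors, and a wide spread. It read 10.43 and 10.16 in normal samples, 5.20, 8.32, 6.50 and 7.97 in heterozygous pairs 1-2, 3-4, 5-6 and 7-8, and 8.88 in the homozygous sample. All tumor samples lay below both normal samples, and the homozygous value lay above every heterozygous one. The heterozygous log2 fold change was -3.29 (SE 0.80, limma adjusted p = 0.0257), or 9.81-fold lower, and the homozygous difference was -1.41 (adjusted p = 0.567). The 2 heterozygous pairs with high Xist, 3-4 and 7-8, were the ones with more Kcnk2. With Xist as a covariate the heterozygous difference was -4.44 (adjusted p = 0.000779) and the homozygous one -3.76. Both normal samples were low in Xist and the homozygous sample was high. That fit therefore takes its Xist slope almost wholly from the heterozygous pairs, and in it the homozygous genotype and Xist cannot be told apart. The heterozygous call was lost without normal sample 1 (adjusted p = 0.145), normal sample 2 (0.112) or pair 5-6 (0.0535).

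The other leak channels were steadier. Kcnk1, a weakly conducting member and the Kcn gene of highest mean (10.47), lay between 10.29 and 10.69 on all 12 arrays. It differed by -0.04 (limma adjusted p = 0.841) and -0.25 (adjusted p = 0.498) in heterozygous and homozygous tumors. Kcnk12 read 6.11 and 6.01 in normal samples, 6.63 to 6.89 in heterozygous pairs and 6.86 in the homozygous sample. All tumor samples were above normal, by 0.70 (adjusted p = 0.00634) and 0.80 (adjusted p = 0.0550), which is under 2-fold. Kcnk3, an acid-sensitive channel, differed by -0.12 (adjusted p = 0.815) and -0.80 (adjusted p = 0.377).

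**Figure D4:**
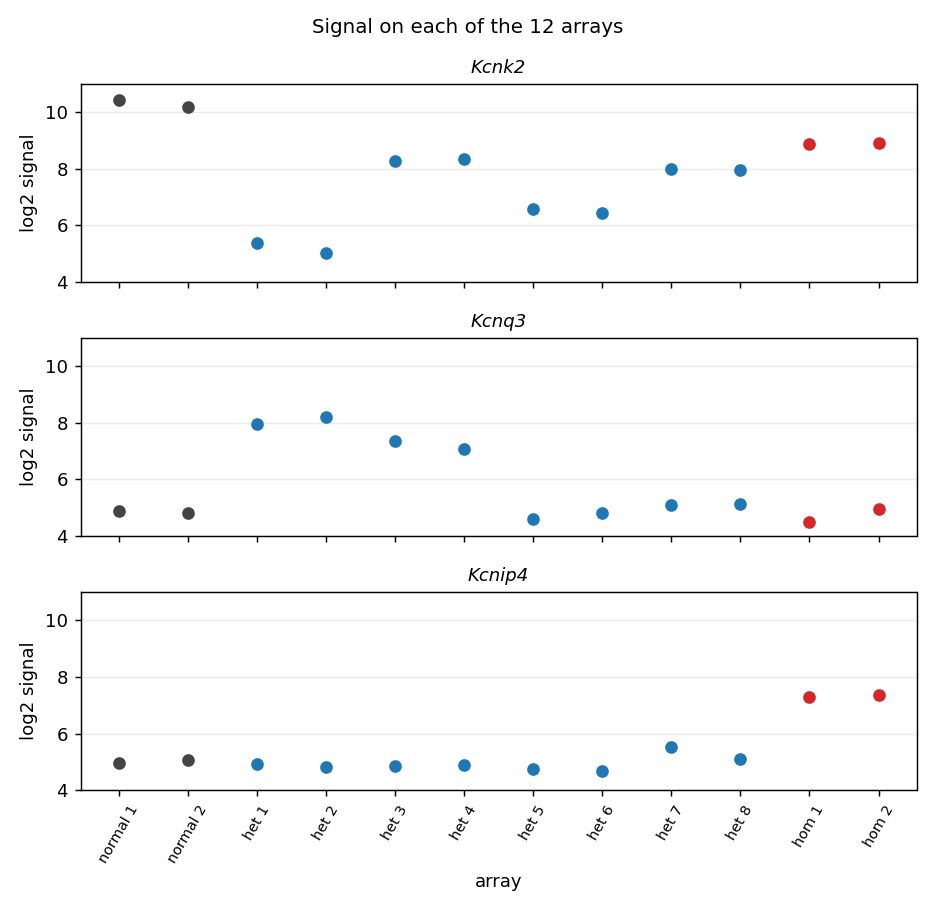
Log2 signal (vertical axis) of Kcnk2, Kcnq3 and Kcnip4 on each of the 12 arrays (horizontal axis), with arrays of a heterozygous or homozygous pair next to each other. Paired arrays lie close together, Kcnk2 and Kcnq3 differ between heterozygous pairs, and Kcnip4 is above 7 on the 2 homozygous arrays only.

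Over the 4 heterozygous samples the median SD of the 42 tested genes was 0.23, beside 0.16 for all tested genes. Kcnq3 (SD 1.63) and Kcnk2 (SD 1.43) were the 2 with an SD over 1, which 80 of all tested genes (0.65%) had. The next potassium channel gene had an SD of 0.52. The pairs high in Kcnq3, 1-2 and 3-4, through which alone it entered the test, were not the pairs high in Kcnk2, 3-4 and 7-8.

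Calcium-activated channels open more readily once calcium has entered the cell. Kcnn2, a small-conductance pore, read 7.80 and 7.64 in normal samples, 5.88, 6.35, 5.84 and 6.41 in heterozygous pairs and 6.62 in the homozygous sample. All tumor samples lay below both normal samples. The heterozygous fall had a log2 fold change of -1.60 (SE 0.20, limma adjusted p = 0.00194), and the homozygous difference was -1.10 (adjusted p = 0.0940), which passed with all 12 arrays and the pair as a random block (adjusted p = 0.0249).

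Kcnmb2, an auxiliary subunit that inactivates the large-conductance channel, read 8.05 and 8.27 in normal samples, 6.21, 6.48, 6.31 and 6.72 in heterozygous pairs and 7.69 in the homozygous sample. The homozygous value lay between the other groups. The heterozygous fall had a log2 fold change of -1.73 (SE 0.17, limma adjusted p = 0.000741), and a second probe set gave -1.70 (adjusted p = 0.00411). The homozygous sample differed from normal by -0.47 (adjusted p = 0.344) and from the heterozygous samples by 1.26 (adjusted p = 0.111), and the second of these passed with all 12 arrays and the pair as a random block (adjusted p = 0.0259). Kcnma1, the pore that Kcnmb2 joins, read 8.22 and 8.16 in normal samples, 7.53 to 7.95 in heterozygous pairs and 7.83 in the homozygous sample. It lay lower in all tumors by less than 2-fold (-0.49, adjusted p = 0.0449, and -0.35, adjusted p = 0.405). Kcnmb4, the auxiliary subunit known from neurons, differed by -0.48 (adjusted p = 0.146) in heterozygous tumors.

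Kcnt1, a sodium-activated pore, read 6.77 and 6.49 in normal samples, 7.12 to 7.54 in heterozygous pairs and 6.40 in the homozygous sample. The heterozygous samples were above all others, by 0.73 against normal (limma adjusted p = 0.0164), which is under 2-fold. Kcnu1, a relative known from sperm, differed by 0.02 (adjusted p = 0.979).

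Auxiliary subunits bind the pores and change their gating or their number at the membrane. Kcnab1, a cytoplasmic subunit that gives Kcna channels fast inactivation, read 7.33 and 7.68 in normal samples, 5.74, 5.63, 5.79 and 6.01 in heterozygous pairs and 5.75 in the homozygous sample. All tumor samples lay below both normal samples and close to 5.74, so the size of the fall is approximate. The log2 fold change was -1.71 (SE 0.15, limma adjusted p = 0.000613) in heterozygous and -1.75 (SE 0.22, adjusted p = 0.0138) in homozygous tumors. Kcnab3, of the same subfamily, differed the other way in heterozygous tumors, by 0.90 (adjusted p = 0.0319), under 2-fold. Kcnab3 entered the test only through heterozygous arrays, where it is high.

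Kcnip4, a calcium-binding partner of Kcnd pores, was called in the homozygous tumor against both other groups. It read 4.95 and 5.07 in normal samples, 4.87, 4.87, 4.72 and 5.32 in heterozygous pairs and 7.31 in the homozygous sample. The normal and heterozygous samples were all below 5.74 and overlapped, and the homozygous sample was above every one of them. The homozygous rise was 2.30 (SE 0.25, limma adjusted p = 0.0102) against normal and 2.37 (SE 0.23, adjusted p = 0.00981) against heterozygous tumors, and its size is approximate because the lower groups lie in the low range. The other 2 probe sets gave 2.88 (adjusted p = 0.0458) and 2.81 (adjusted p = 0.0490) against normal, and 3.04 (adjusted p = 0.107) and 3.11 (adjusted p = 0.104) against heterozygous tumors, which missed the threshold. The gene passed the filter on low values only through the 2 homozygous arrays, where it is high, and the result rests on 1 homozygous sample. Kcnip3, which also acts as a calcium-sensing repressor of transcription, differed by 0.13 (adjusted p = 0.605) in heterozygous tumors. Its other probe set gave 0.81 (adjusted p = 0.0309), under 2-fold, so the 2 probe sets disagree.

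Without either normal sample the homozygous calls of Kcna5, Kcnc4 and Kcnip4 against normal were lost (adjusted p = 0.0818 and 0.0855, 0.0712 and 0.0582, and 0.0602 and 0.0587 without normal 1 and normal 2), and that of Kcnab1 was lost without normal 2 (0.0651). The directions were the same in each.

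Partners of potassium channels and potassium transporters with other symbols were read beside them. Of 24 listed genes 17 had a probe set of their own and 13 were tested. In heterozygous tumors 2 were lower (4.5% of all tested genes were) and none was higher (5.57% of all). Hcn2 (0.48, limma adjusted p = 0.0229) and Slc12a2 (-0.60, adjusted p = 0.0131) passed the adjusted p there but differed by less than 2-fold. In homozygous tumors limma called none (3 at an unadjusted p under 0.05). Dpp6, which speeds Kcnd gating, read 7.12 and 7.63 in normal samples, 5.68 to 6.64 in heterozygous pairs and 6.66 in the homozygous sample. The tumor samples lay below both normal samples, by -1.27 (SE 0.27, adjusted p = 0.0159) in heterozygous tumors. Slc12a4, a potassium-chloride cotransporter, differed by -1.03 (SE 0.24, adjusted p = 0.0225), just past 2-fold, and lost its call in 8 of 28 alternatives, among them those without normal 1 (-0.88, adjusted p = 0.156) and without normal 2 (-1.17, adjusted p = 0.0754). Abcc8, the sulfonylurea receptor that joins Kcnj11, was below 5.74 on every array.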

How the data were processed

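Expression was measured on 12 arrays of mouse pituitary RNA. The authors deposited log2 values made with the Robust Multichip Average algorithm; the labels name Affymetrix Expression Console and the methods name GeneSpring for this step. Raw image files and detection calls were not used here. Of the probe sets, 64 controls were left out, 34945 named 1 gene, 932 several and 9160 none. The test took in probe sets that reached 5.74, the median over all probe sets and arrays, on 2 or more arrays, 24486 in number, standing for 12305 genes by the probe set of highest mean.

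Near-duplicate arrays were averaged to 7 samples. The 3 groups were fitted together in limma 3.58.1 (R 4.3.3; lmFit, contrasts, eBayes; 4 residual degrees of freedom), with Benjamini-Hochberg adjustment over all tested probe sets and a call at an adjusted p under 0.05 and over 2-fold. The number of arrays limits the precision. Genes named were all called Kcn genes, the gene of highest mean in each subfamily, 5 textbook channels of endocrine cells (Kcnj11, Kcnma1, Kcnq1, Kcnh2, Kcnj3) and called partners, with further genes of each subfamily named after their values were seen. The members and lists were chosen with earlier results of these data known.

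Other lists were described by their calls. Of 5 tested melanotroph and corticotroph markers 1 was higher and 1 lower in heterozygous tumors; of 4 somatotroph and lactotroph markers 1 was lower; of 5 endothelial markers 1 was lower; and of 5 mural markers 1 was higher, where 10.1% of all tested genes were called. Alternatives covered the treatment of paired arrays, the low-value filter, scaling, the test, the choice of probe set, Xist and single arrays or pairs left out.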

Additional observations from a re-analysis of the deposited data

Results flagged for a closer look

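Kcnd3 in heterozygous pair 7-8 (log2 signal 8.10) lay far above the other 3 heterozygous pairs (7.10, 7.16 and 7.19), a gap wide for 4 samples by Dixon's test. This test was run on 29 genes, and chance alone marks about 5% of groups. The same pair was the nearest of the heterozygous pairs to the homozygous sample, whose Kcnd3 signal was 8.71. It was also the nearest over all tested probe sets. Its arrays differed from the homozygous arrays over 2-fold at 500 to 524 probe sets, and the other heterozygous arrays at 986 to 1349.

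Kcnip4 differed between the tumor genotypes, with a homozygous minus heterozygous log2 fold change of 2.37 (SE 0.23, limma adjusted p = 0.00981), tested as a contrast of its own. It was above the 4 heterozygous samples in the 1 homozygous sample measured. The gene passed the filter on low values only through the homozygous arrays, where it is high. Its other probe sets gave 3.04 and 3.11 for this contrast and missed the threshold.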

How the results depend on the processing

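No called difference changed direction under the 29 alternatives that gave fold changes. The counts that moved by over 1.5 times were these. In heterozygous tumors against normal, the number higher was 2 and became 4 with arrays 1 and 2 of each group alone, with or without the replicate block, and 6 with no minimum fold. In homozygous tumors against normal, the number lower was 3 and became 5 with 12 arrays taken as separate samples and 6 with arrays 1 and 2 alone (with the block, without it, both) or in a one-way test on 12 arrays. In homozygous against heterozygous tumors, the number higher was 1 and became 3 with 12 arrays, 2 with the pair as a random block, 5 with arrays 1 and 2 with or without the block, and 4 in the one-way test, and the number lower was 0 and became 1, 1, 6 and 1 in the same order. Smaller shifts were a heterozygous lower count of 7 (probe sets averaged) to 12 (no minimum fold) in place of 8, a heterozygous higher count of 3 with Xist, and a homozygous lower count of 4 in several settings. Leaving out single arrays or pairs gave 2 to 3 higher and 6 to 8 lower in heterozygous tumors, 0 to 1 higher and 0 to 4 lower in homozygous tumors, and 1 to 3 higher and 0 to 0 lower between the genotypes. The lowest homozygous counts came without a normal sample: 1 lower without normal 1, 0 lower without normal 2, and 0 higher without either. The cause was not tested.

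Deviations of same-numbered arrays 1 and 2 correlated at 0.0677, -0.0229 and -0.00261 between the groups. In both tumor groups these arrays are near-duplicates, so their deviations hold only the spread within a pair. The correlations therefore cannot show whether replicate numbers pair the samples. The fits with and without the replicate block gave the same counts, on 1 heterozygous pair. The unblocked fit on these arrays was chosen after seeing the data.

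With no low-value filter Kcng4 was also called lower in both genotypes (9 and 4 lower). Kcnd3 was not tested when the probe sets of a gene were averaged. Dpp6 lost its call with Xist as a covariate (-0.98) and without normal 2 (adjusted p = 0.12). The homozygous comparisons rest on 1 sample, and signal near 5.74 limits the fold changes of Kcnc4, Kcnab1 and Kcnip4.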
